A study of Mus musculus with 10 samples.

Results

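Anxa3, the gene of annexin A3, held 10 of the 2311 rows in the authors' deposited tables of changed intronic polyadenylation sites. All rows carrying that symbol were taken, 9 from the comparison of 4T1-U1-ASO with 4T1 and 1 from the comparison of 168FARN with 4T1. The tables of 168FARN with 4T07, 67NR with 4T07 and 67NR with 4T1 held no Anxa3 row. The gene was picked for its 9 sites in the authors' deposited table, so those 2 contrasts are described below without a test.

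The study sequenced the 3′ ends of poly(A) RNA from cultured mammary tumour lines of the mouse, with 10 libraries that form 5 groups of 2 replicates. The untreated lines were 67NR and 168FARN, labelled non-invasive and called non-metastatic in the series design, and 4T07 and 4T1, labelled invasive and called metastatic. The fifth group, 4T1-U1-ASO, was 4T1 cells given antisense morpholino oligonucleotides with the Endo Porter delivery reagent at 6 µl/mL, directed against the U1 small nuclear RNA. The design speaks of a mock-transfected control, while no treatment is written on the 4T1 libraries. All lines grew in DMEM with fetal bovine serum. Nothing in the labels says whether the libraries of a group were separate cultures, so the p-values below measure only the spread between libraries, which may be technical. The cell type could not be checked by gene levels, because no gene names were given to peaks that the tables leave out. Of the 4 mammary epithelial markers listed for that purpose, the tables named Cdh1 alone, and they named none of 3 fibroblast and none of 2 leukocyte markers.

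Annexins are cytosolic proteins that bind acidic phospholipids of membranes when calcium rises, and annexin A3 is a member best known from neutrophil granules and from epithelial tumours. The U1 small nuclear ribonucleoprotein recognises 5′ splice sites, and it also keeps the cleavage machinery from using polyadenylation signals that lie inside introns. When a transcript ends at such a signal, it has an intronic polyadenylation (IPA) site, lacks the exons further downstream and can no longer give the full-length protein. The IPA usage of a site is given here as the percentage of its reads among its own and the last-exon reads of the same library.

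All 9 Anxa3 sites of the U1-ASO table were used more in both 4T1-U1-ASO libraries than in either 4T1 library. The sites lay along a stretch of chromosome 5 that ended at the last-exon peak, chr5:97274192-97274991 (mm9, plus strand, 800 bp), and began 44.6 kb upstream of it. Among all 1561 sites of that table, 87.5% had usage values separated in the same way, and 87.6% were listed as higher under U1-ASO, so the direction was that of most listed sites. What set Anxa3 apart in the table was the number of its sites, for which it was picked. Of 1131 listed genes, 863 had 1 site, 96 had 3 or more, and only Chka, which encodes choline kinase alpha, had as many as 9.

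Counted together, the 9 sites took 17 reads in 4T1 replicate 1 and 40 in replicate 2. The 4T1-U1-ASO libraries held 332 and 314. Last-exon reads were 2197 and 2698 in 4T1 against 2520 and 2592 in 4T1-U1-ASO, so the raw last-exon reads of the treated libraries lay between those of the untreated ones. Summed usage was thus 0.768% and 1.46% in the 4T1 libraries and 11.6% and 10.8% in the 4T1-U1-ASO libraries. The mean was 1.11% ± 0.490 in 4T1 and 11.2% ± 0.591 in 4T1-U1-ASO (SD, n = 2 each), a difference of 10.1 percentage points. The groups did not overlap, but the 9 sites were listed for differing in this contrast, so their sum is no independent support for it. Most Anxa3 transcripts with a mapped end still ended in the last exon under the antisense oligonucleotide. Among the 96 genes with 3 or more sites, Anxa3 ranked 61 by summed usage under U1-ASO, where the median was 16.6%, and the median in 4T1 was 3.37%.

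**Figure D1:**
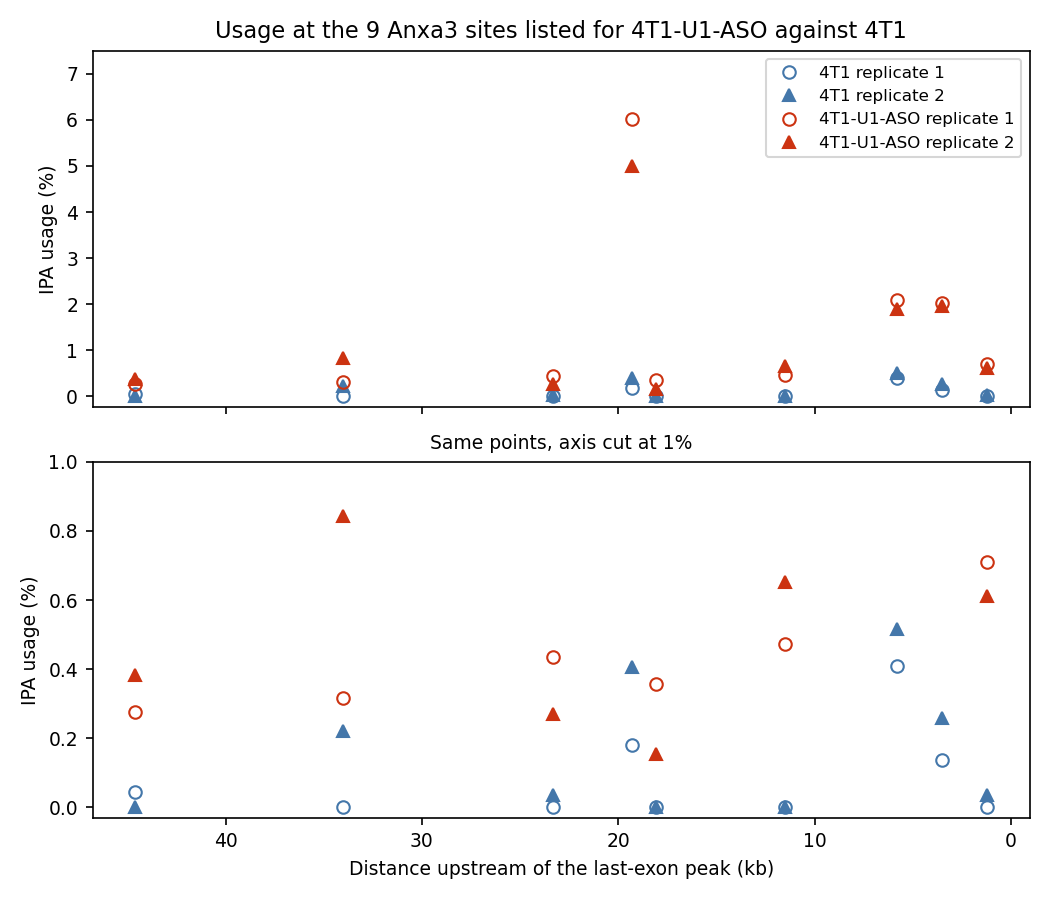
IPA usage (%) of each of the 9 sites in each library, plotted against the distance (kb) upstream of the last-exon peak; the lower panel repeats the points on an axis that stops at 1%. Circles are replicate 1 and triangles replicate 2, blue for 4T1 and red for 4T1-U1-ASO. The site 19.3 kb upstream stands above the rest at 6.01% and 4.99% under U1-ASO.

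The site far ahead of the others was chr5:97254346-97254928, 19.3 kb upstream of the last-exon peak. It held 4 and 11 reads in the 4T1 libraries and 161 and 136 in the 4T1-U1-ASO libraries. Usage there was 0.182% and 0.406% in 4T1 and 6.01% and 4.99% in 4T1-U1-ASO, with means of 0.294% ± 0.159 and 5.50% ± 0.721 (SD, n = 2), 18.7-fold apart. This single site supplied 48.5% and 43.3% of the listed Anxa3 IPA reads under U1-ASO, against 23.5% and 27.5% in 4T1. The authors' deposited table gives it a log2 fold change of 3.87 (SE 0.45), the highest of the 9.

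The next in usage were 2 sites close to the end of the gene. At chr5:97267683-97268377, 5.82 kb upstream, the 4T1 libraries held 9 and 14 reads and the 4T1-U1-ASO libraries 54 and 50. Its mean usage was 0.462% ± 0.0765 in 4T1, the highest of the 9 sites in untreated cells, and 2.0% ± 0.145 under U1-ASO, 4.32-fold apart. At chr5:97270528-97270686, 3.51 kb upstream, the reads were 3 and 7 in 4T1 and 52 and 52 in 4T1-U1-ASO, and mean usage was 0.198% ± 0.0866 and 1.99% ± 0.0389. Under U1-ASO these neighbours had nearly equal mean usage. Their means in 4T1 rest on few reads, and whether those differ was not tested. The authors' deposited table has log2 fold changes of 1.96 (SE 0.42) for the former and 2.95 (SE 0.49) for the latter.

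The other 6 sites each stayed under 1% in every library. Nearest the last exon, 1.21 kb upstream, chr5:97272549-97272981 went from 0 and 1 reads in 4T1 to 18 and 16 in 4T1-U1-ASO, with a mean usage of 0.661% ± 0.0677 under treatment. The sites at chr5:97255636-97256099 and chr5:97262360-97262722, 18.1 and 11.5 kb upstream, were the only 2 without a read in either 4T1 library. Such empty sites made up 15.0% of the 1368 sites that the table lists as higher under U1-ASO. The former had 9 and 4 reads in 4T1-U1-ASO and the latter 12 and 17. Zero of the 4895 untreated reads of each site and the last exon allows a usage of up to 0.0613% (3 reads over both libraries). Mean usage under U1-ASO was 4.16-fold this limit at the former (0.255% ± 0.143) and 9.18-fold at the latter (0.563% ± 0.126). These ratios leave out the counting error of the treated means and are no strict lower bounds. Without 4T1-U1-ASO replicate 1, usage at the former was 0.154% and the ratio 2.51-fold. The exact 95% interval of that remaining value, 0.0420% to 0.394%, reaches below the limit. The remaining 7 of the 9 sites all had at least 1 read in an untreated library. At the sites 44.6, 23.3 and 1.21 kb upstream it was a single read in 1 of the 4T1 libraries. So "gained" means more reads under U1-ASO, and such low counts do not tell whether a site was in use or unused in untreated cells.

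The 3 sites furthest upstream were also used little. At chr5:97229321-97229575, 44.6 kb upstream, reads were 1 and 0 in 4T1 and 7 and 10 in 4T1-U1-ASO (usage 0.331% ± 0.0759 under treatment). At chr5:97250790-97250934, 23.3 kb upstream, they were 0 and 1 against 11 and 7 (0.352% ± 0.117). Between them, at chr5:97239723-97240143, 34.0 kb upstream, 4T1 replicate 2 held 6 reads and replicate 1 none, while 4T1-U1-ASO held 8 and 22. Usage at this site was 0.222% in the higher 4T1 library and 0.316% in the lower 4T1-U1-ASO library, the narrowest separation of the 9. The difference of the means, 0.468 percentage points, was 0.206 without 4T1-U1-ASO replicate 2 and 0.731 without replicate 1. In the authors' deposited table it also has the lowest log2 fold change, 1.82 (SE 0.64), and the highest adjusted p-value, 0.044. Across the 9 sites the median log2 fold change of the authors' deposited table was 2.68, against 1.93 over all sites it lists as higher under U1-ASO. Anxa3 is also a deeply read gene. It ranked 43 of 1131 listed genes by mean last-exon reads in 4T1, with 2448 against a median of 261, and the median over genes with 3 or more sites was 427. Chka, with as many sites, had 186 and 222. The part of depth in the site number was not tested.

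How the last exon itself changed under U1-ASO depended on the scaling between libraries. The authors' deposited table gives a log2 change of −0.53, close to the median of −0.66 over 1129 genes with a finite value, of which 635 were lower than Anxa3. With TMM scaling of the peak lists the difference of 4T1-U1-ASO from 4T1 was −0.17 on the log2 scale, with DESeq2 size factors it was −0.01, and with scaling by the libraries' totals it was 0.15. So whether Anxa3 last-exon ends fell cannot be read from these libraries, while usage, a ratio within a library, does not depend on scaling. In bulk RNA such as this, fewer cells making a transcript and less of it per cell cannot be told apart.

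The deposited peak lists, 1 per library, show Anxa3 ends that the tables leave out. In the stretch from the first listed site to the last exon, 4T1 replicate 1 had 5 peaks with 17 reads, and replicate 2 of the same line had 9 peaks holding 34 reads. The 4T1-U1-ASO lists had 26 peaks with 355 reads and 27 peaks with 179 reads. Peaks were therefore about as many in both treated libraries, though their reads differed almost 2-fold. Over all libraries the stretch held 53 separate peaks, of which 10 were listed sites and 43 were not. Among the unlisted, 32 were found in a 4T1-U1-ASO library, 7 in a 4T1 library and 5 in both treated libraries. They were small, and only 8 held 5 or more reads in all. At chr5:97260532-97260822, for example, reads were 0 and 2 in 4T1 and 5 and 6 in 4T1-U1-ASO, and at chr5:97231436-97231555 they were 0 and 0 against 5 and 4. These 2 were chosen for mention after their values were seen. No count of such peaks over other genes is given here. Whether the higher number under U1-ASO is particular to Anxa3 was not tested.

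**Figure D2:**
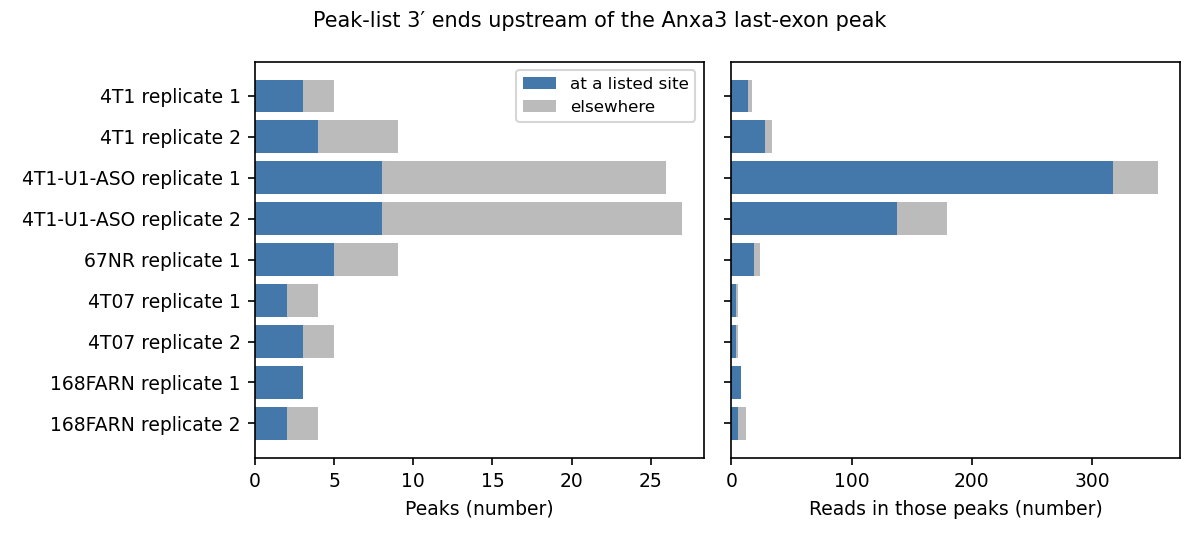
Number of peaks (left) and of reads in them (right) between the first listed Anxa3 site and the last-exon peak, 1 bar per library whose list covers chromosome 5. Blue marks peaks at listed sites and grey those elsewhere. The 4T1-U1-ASO libraries have 26 and 27 peaks and every other library has 9 or fewer. No such count over other genes is given.

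The lower of these, replicate 2, lacked 2 well-covered sites in its list. It had no peak at the strongest site, where the table holds 136 reads, nor at chr5:97270528-97270686, where the table holds 52. The list of 4T1-U1-ASO replicate 1 likewise lacked the sites 34.0 and 11.5 kb upstream. In each of the 4 libraries 2 of the 9 sites had reads in the table and no peak in the list, and 6 or 7 sites agreed exactly. The last-exon peak had identical reads in list and table in all 4 libraries. From the lists alone the summed usage differed by 7.10 percentage points between the groups in place of 10.1.

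In the lists of untreated cells few Anxa3 reads lay upstream of the last exon. In the same stretch, reads made up 0.768% of those in the stretch and the last-exon peak in 4T1 replicate 1 (95% exact Clopper-Pearson interval 0.448 to 1.23) and 1.24% in replicate 2 (0.863 to 1.73). The share was 1.15% in 67NR replicate 1 (0.735 to 1.70). It was 1.13% (0.415 to 2.44) and 0.942% (0.346 to 2.04) in the 4T07 libraries, and 1.03% (0.448 to 2.03) and 1.34% (0.696 to 2.34) in those of 168FARN. These intervals, which cover counting error only and not the sites a list leaves out, all overlapped. Overlap of intervals is not a test, and a difference among the lines was not tested. Under U1-ASO the shares were 12.3% (11.2 to 13.6) and 6.46% (5.57 to 7.44), above every other library. Of the reads behind them, 317 of 355 and 138 of 179 lay at listed sites. All but 1 of these sites were listed for being higher under U1-ASO, so the shares are no independent support for that contrast. Outside the listed sites the 4T1-U1-ASO libraries held 38 and 41 reads and the 4T1 libraries 3 and 6. The list of 67NR replicate 2 covers 10 chromosomes without chromosome 5, and it gives no value for Anxa3.

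Of the 9 sites listed for U1-ASO, 6 had reads in the lists of 67NR, 4T07 or 168FARN, with 1 to 6 reads in a library that had any. The site 5.82 kb upstream had 6 reads in 67NR replicate 1, 0 and 1 in 4T07 and 1 and 0 in 168FARN. The strongest site under U1-ASO had none in 67NR replicate 1 or in 4T07, and 2 and 0 in 168FARN. A 0 in a list sets no upper limit on usage, since sites with reads in the table can be missing from a list, as in the 4T1 and 4T1-U1-ASO libraries above. For the same reason, no test between lines is reported for these sites.

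One Anxa3 site appeared in the comparison of 168FARN with 4T1, at chr5:97263792-97263928, 10.3 kb upstream of the last-exon peak, between sites of the U1-ASO table. The reads behind it were few, with 5 and 5 in 168FARN and 4 and 1 in 4T1. Its last-exon reads in that table were 1530 and 1762 in 168FARN and 4394 and 5396 in 4T1. Usage from the table was 0.304% ± 0.0302 in 168FARN and 0.0547% ± 0.0512 in 4T1 (SD, n = 2 each), higher in both 168FARN libraries, as at 71.8% of the 85 sites of that table. In the authors' deposited table the log2 change of the IPA reads is 0.68 and that of the last exon −1.82, both as 168FARN minus 4T1. Its log2 fold change of the site relative to the last exon is −1.65 (SE 0.52, adjusted p 0.090), written as 4T1 minus 168FARN.

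The last-exon reads of that row were exactly 2 times those of the last-exon peak in all 4 libraries. The peak holds 765 and 881 reads in 168FARN, and 2197 and 2698 in 4T1, as in the U1-ASO table. With the last exon counted once, usage at the site was 0.649% and 0.564% in 168FARN and 0.182% and 0.0371% in 4T1. The order of the groups was unchanged, and every value was about double. Anxa3 was not alone in this. Of 17 genes present in both tables with at least 10 reads, 9 had equal last-exon reads and 3 had exactly 2 times as many within a tolerance of 0.02. In the table of 67NR with 4T1 it was 17 and 5 of 28 genes.

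**Figure D3:**
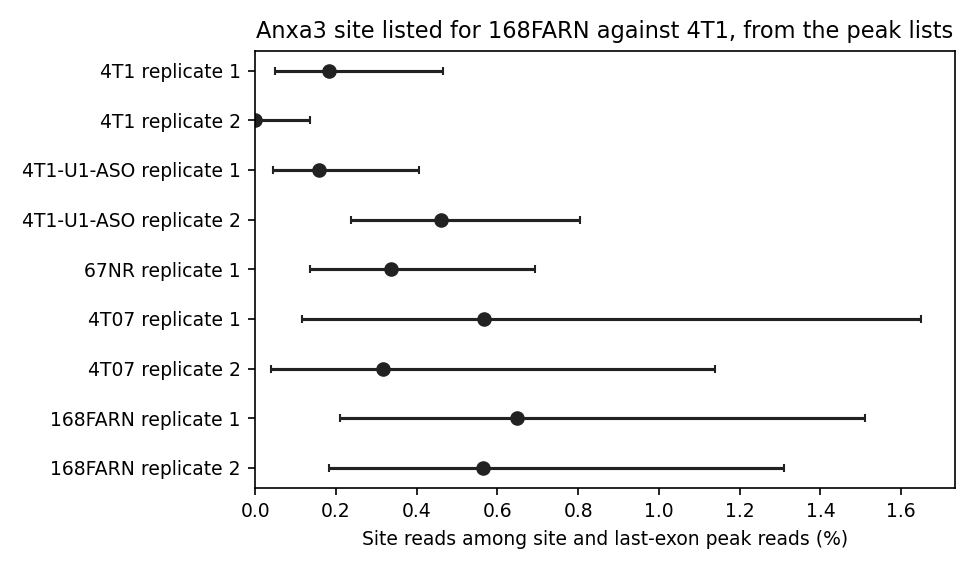
Share (%) of reads at the site 10.3 kb upstream among its own and the last-exon peak reads, from the peak lists, 1 point per library with its exact 95% interval. The 168FARN values of 0.649% and 0.564% lie above both 4T1 libraries. The intervals of all 5 libraries of 67NR, 4T07 and 168FARN overlap that of 4T1 replicate 1. That of 4T1 replicate 2 (0 to 0.137) lies below both 168FARN intervals (0.211 to 1.51 and 0.183 to 1.31). It rests on a list value of 0 where the table has 1 read, so it sets no upper limit.

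The site was in use in all lines measured. The peak lists held 7 reads there in 67NR replicate 1, 3 and 2 in 4T07, 5 and 5 in 168FARN, 4 and 0 in 4T1 (where the table has 1 read in replicate 2) and 4 and 12 in 4T1-U1-ASO. With 12 reads 4T1-U1-ASO replicate 2 was highest in reads, while replicate 1 equalled 4T1 replicate 1, so the treated and untreated libraries overlapped. The U1-ASO table does not list the site.

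Between the lines, the Anxa3 last-exon peak varied about 5-fold. It held 2197 and 2698 reads in 4T1, 2520 and 2592 in 4T1-U1-ASO, 2072 in 67NR replicate 1, 765 and 881 in 168FARN and 526 and 631 in 4T07. The lists of these 9 libraries total 2499475 to 3347776 reads. As CPM (reads of the peak scaled to a common library total, with TMM factors), the levels were 204 and 216 in 4T07, 282 and 299 in 168FARN, 667 in 67NR, 900 and 917 in 4T1-U1-ASO and 1042 and 998 in 4T1. On this scale no 2 groups overlapped, and how many of all peaks separate in this way was not counted. The place of 4T1-U1-ASO below 4T1 rests on the TMM factors. Scaled by library totals alone, the levels were 971 and 981 in 4T1-U1-ASO and 879 and 965 in 4T1. The order of the untreated lines did not follow the labels. The invasive lines 4T1 and 4T07 stood at opposite ends, with the non-invasive lines between them.

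**Figure D4:**
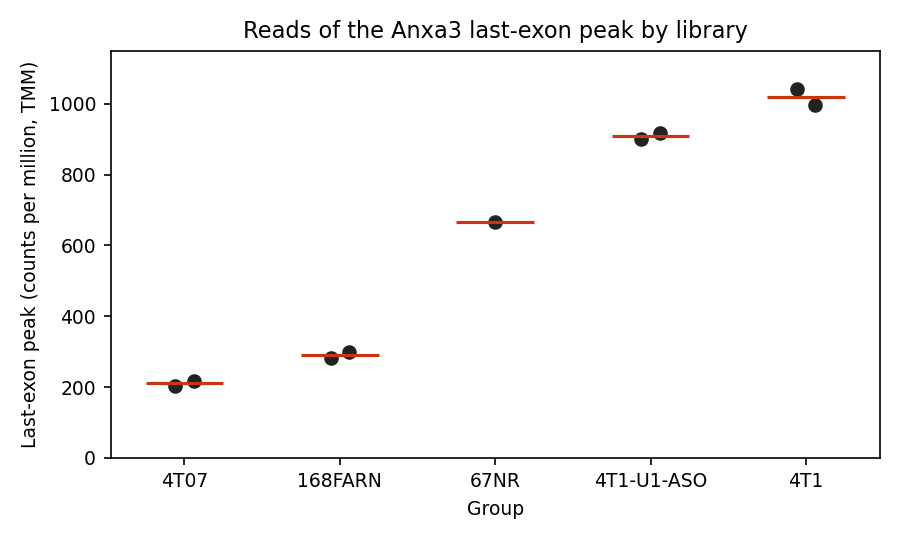
Reads of the Anxa3 last-exon peak in CPM (TMM scaling) by group, in ascending order; points are libraries and red lines group means, with 1 library for 67NR. The 4T07 libraries lie at 204 and 216 and the 4T1 libraries at 1042 and 998.

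The highest and lowest lines differed most. In edgeR's quasi-likelihood fit over 26041 merged peaks, 4T1 exceeded 4T07 by 2.28 on the log2 scale (SE 0.09, 95% interval 2.06 to 2.50, adjusted p = 0.000945), 4.86-fold. Both 4T1 libraries were higher than both of 4T07, and 5.60% of all peaks were called higher in that contrast. The non-invasive lines also differed from each other, as 67NR exceeded 168FARN by 1.20 (SE 0.10, interval 0.95 to 1.45, edgeR adjusted p = 0.00442, background 2.57% of peaks called higher). These 2 contrasts were added after the levels were seen.

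Against 67NR, the other lines moved in opposite directions. The last-exon peak of 4T07 was lower than that of 67NR, at −1.67 on the log2 scale (SE 0.10, interval −1.91 to −1.42, edgeR adjusted p = 0.00167), with 3.06% of peaks called lower. In 4T1 it was higher by 0.61 (SE 0.10, interval 0.35 to 0.87, edgeR adjusted p = 0.0280, 1.53-fold), with 4.45% of peaks called higher. The single 67NR library is assumed in both to vary like the other groups. Over all alternatives run, the call for 4T1 was lost in 8 and kept in 7. The call for 4T1 was lost with a replicate block (edgeR adjusted p = 0.0628), without the U1-ASO libraries (0.0525) and in 6 of the fits that left out 1 library.

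Against 168FARN, 4T07 was lower by a smaller step, −0.47 on the log2 scale (SE 0.08, interval −0.68 to −0.26, edgeR adjusted p = 0.0244), and 4.88% of peaks were called lower. Both 4T07 libraries lay below both 168FARN libraries. Over all alternatives run, the call was lost in 7 and kept in 9. The call was lost without the low-count filter (−0.40, edgeR adjusted p = 0.0787) and in 6 of the fits that left out 1 library (adjusted p of 0.0582 to 0.164). The difference of 4T1 from 168FARN, 1.81 or 3.51-fold, belongs to the contrast in which an Anxa3 site was listed and is given without a test. The deposited last-exon change in that row is of the same size, but it comes from the same last-exon peak reads and is no separate support.

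Other annexins shared the direction under U1-ASO with fewer sites. Of 12 annexin genes, 4 were in the authors' deposited U1-ASO table, with 18 sites in all, and each of the 18 is listed as higher under treatment, as are 87.6% of all sites in that table. The share of all measured genes that have a listed site was not counted, so 4 of 12 cannot be read as many or few. Anxa1, an inhibitor of phospholipase activity and inflammation, had 4 sites, whose summed usage went from 2.28% and 1.77% in 4T1 to 7.26% and 7.37% in 4T1-U1-ASO. Anxa2, which forms a complex with S100A10 at the plasma membrane, had 3 sites, with 0.519% and 0.681% against 1.59% and 1.74%. Anxa5, known as the probe for phosphatidylserine on dying cells, had 2 sites, with 0.347% and 0.343% against 1.36% and 1.48%. The groups did not overlap in any of the 4 genes, whose sites were chosen by that contrast. How many of all listed genes separate in this way was not counted. Anxa3 had both the most sites and the highest usage under U1-ASO of the 4. It was picked for its number of sites, and summed usage adds up over them, so neither rank is a finding about Anxa3.

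The annexins differed in how much of the rise lay in the site and how much in the last exon. Anxa2 had the deepest last exon of the 4, with 6714 and 6420 reads in 4T1 and 3472 and 3449 in 4T1-U1-ASO. In the authors' deposited table its last-exon log2 change is −1.54, that of Anxa1 −0.87, that of Anxa5 −0.60 and that of Anxa3 −0.53. These rest on the authors' scaling, and the raw last-exon reads of Anxa5, for one, were 1436 and 1452 against 1447 and 1466. At the Anxa2 site chr9:69337456-69337586 the reads were 30 and 29 in 4T1 and 32 and 40 in 4T1-U1-ASO, and the authors' deposited table has a log2 change of its IPA reads of −0.33. At the Anxa3 sites the log2 change of the IPA reads in the authors' deposited table was 1.61 or more, apart from the 2 with no 4T1 read, where it is infinite. The 4 S100 partners of annexins had no listed site. Of 9 genes of calcium-dependent membrane binding and repair, Myof and Pdcd6ip were listed, with 3 sites, all higher. Without the share over all measured genes, these counts show neither an excess nor a lack of listed genes.

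**Figure D5:**
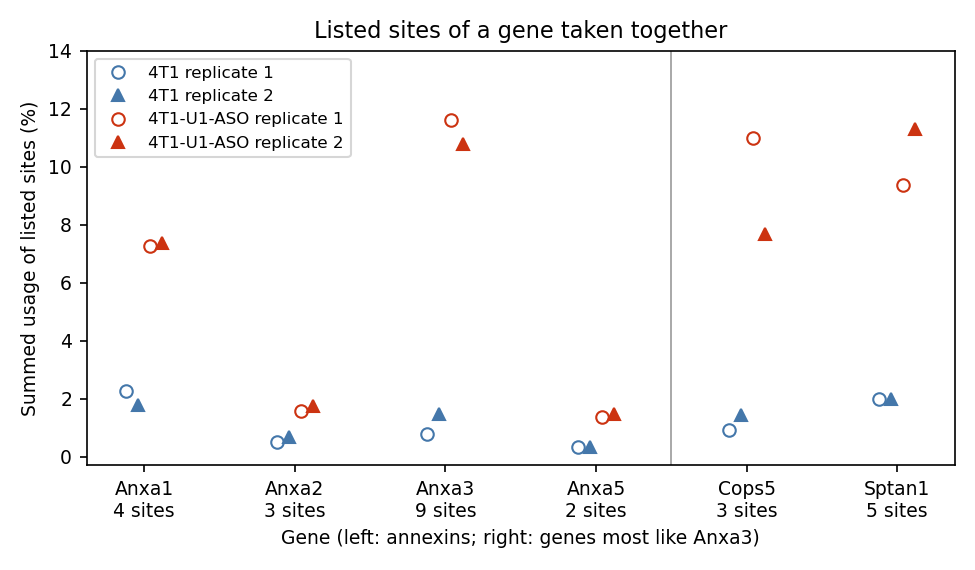
Summed usage (%) of the listed sites of 4 annexins (left of the line) and of Cops5 and Sptan1, whose usage was among the most like that of Anxa3 (right), with circles for replicate 1 and triangles for replicate 2, blue for 4T1 and red for 4T1-U1-ASO. Anxa3 reaches 11.6% and 10.8% under U1-ASO, above the other annexins. It was picked for its number of sites, over which summed usage adds up.

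Among genes with 3 or more sites, the 3 with summed usage most like Anxa3 over the 4 libraries of the U1-ASO comparison included Cops5 and Sptan1. Likeness was the mean absolute difference in percentage points, at 0.977 for Cops5 (a subunit of the COP9 signalosome, 3 sites) and 1.13 for Sptan1 (alpha spectrin, 5 sites). Summed usage of Cops5 was 0.928% and 1.44% in 4T1 and 11% and 7.69% in 4T1-U1-ASO, so its treated libraries were further apart than those of Anxa3. That of Sptan1 was 1.99% and 2.0% in 4T1 and 9.36% and 11.3% in 4T1-U1-ASO. Both had fewer last-exon reads than Anxa3 in every library, with 534 and 618 in 4T1 for Cops5 and 493 and 589 for Sptan1. Chka, the gene with an equal number of sites, was unlike Anxa3 in level. Its 9 sites took 10.6% and 29.5% in 4T1 and 61.8% and 57.7% in 4T1-U1-ASO, and its deposited last-exon log2 change in the authors' table is 1.45, opposite in sign to that of Anxa3.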

How the data were processed

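The members and gene lists were chosen with earlier results of these data known. Per the submitters' processing notes, the build was mm9 and the tools, listed without roles, were DESeq2 1.4.5, bedtools 2.17.0, SAMtools 1.1 and Bowtie2 2.2.5. Per the file headers, the authors' deposited tables hold log2 fold changes, their statistics (a score), p-values, adjusted p-values of at most 0.1 and a normalized read signal per library. Each signal was divided by the value of 1 read in its column, and 100.0% of values were whole within 0.1 read. The authors deposited filtered peak lists with a read count per peak; no source used here gives their filter. Overlapping peaks on a strand were merged over 9 libraries (333457 on chromosomes 1 to 19; 26041 after filterByExpr). The 67NR replicate 2 list (1427728 reads, 10 chromosomes) was left out of the fit. The quasi-likelihood test of edgeR 4.0.16 (R 4.3.3) was run on the counts (TMM, 5 groups, Benjamini-Hochberg, 0.05), and DESeq2 1.42.0 was an alternative. On simulated data for 4T07 against 168FARN (26021 peaks), among peaks above 100 CPM, 45.0% of those changed 4-fold and 92.0% of those changed 16-fold were recovered, with 5 calls among 25821 unchanged. Named genes are Anxa3, the 3 genes with 3 or more sites closest to it in summed usage, genes with at least as many sites, and listed annexins; 1 of the 3 is not reported here. Alternatives were other sources, denominators, scalings, filters and merging, a replicate block and leaving out libraries. No Anxa3 sequence is shown, since none of the tables used here holds one.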

Additional observations from a re-analysis of the deposited data

How the results depend on the processing

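The summed usage difference of 10.1 percentage points was 7.10 with the reads of the peak lists, and 9.69 to 10.5 leaving out each library. The last-exon difference of 4T1 from 67NR was 0.60 with the replicate block (edgeR adjusted p = 0.0628), 0.61 with the line libraries only, and 0.58 to 0.65 leaving out a library. That of 4T07 from 168FARN was −0.40 with no filter, and −0.51 to −0.43 leaving out a library. The causes were not tested. Those of 4T07 from 67NR, 4T1 from 4T07 and 67NR from 168FARN kept direction and call in every alternative run. Same-numbered libraries did not deviate together (correlations −0.01 to 0.04), and the replicate block lost no other Anxa3 call. Called peaks (4T1 against 67NR, 4T07 against 67NR, 67NR against 168FARN) numbered 2081, 1922 and 1330, against 1161, 1079 and 737 with the block, 3477, 3136 and 2766 with DESeq2, and 3327, 3225 and 2633 unfiltered. Leaving out 1 library gave 1036 to 2344, 651 to 2623 and 526 to 1983; for 4T1 against 4T07 (2975) it gave 750 to 3643, and for 4T07 against 168FARN (2922) 837 to 4096. Counts fell by over 1.5 times without either 4T07 library in all 5 contrasts, without either 168FARN library in 3 and without either U1-ASO library in 2. The shares of peaks called in each contrast rest on these counts. Keeping 67NR replicate 2 gives no value, as its list lacks chromosome 5, and contrasts with 67NR cannot be made without replicate 1. Scaling by peak-list totals was added after seeing the data. Sites with 0 to 22 reads per library set the precision of single usage values.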
